A study of Homo sapiens with 8 samples.

Results

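SE12313-b is a stretch of chromosome 16 that lies within SE12313, a super-enhancer of endothelial cells, and that showed no enhancer activity in a reporter assay. It was therefore deleted by the study as a negative control beside E2, an active enhancer of the same super-enhancer. The cells were EA.hy926, an immortalized hybrid of umbilical vein endothelium and a lung carcinoma. Described here are the 3 clonal EA.hy926 lines without SE12313-b (ΔSE12313-b, clones 1, 2 and 3) against 2 libraries of EA.hy926 control cells, 5 of the 8 libraries of the series. The other 3 libraries came from clonal lines without E2 (ΔE2) and enter only where a difference between the deletions was tested. All 3 groups were EA.hy926 cells grown in high-glucose medium with 10% serum, and every clone had been made with Cas9 protein and a pair of guide RNAs. Each clone grew from 1 edited cell, so a clone differs from the control population both by its deletion and by having passed through a single cell, and these cannot be told apart here. For its proliferation assay the study describes control cells that had received guides and were grown beside the clones, but whether the control RNA came from those cells, and from separate cultures, is not given in the sources used here.

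Enhancers are stretches of DNA that raise transcription of genes at a distance, and super-enhancers are dense groups of them that often lie near genes that give a cell type its identity. Endothelial cells line blood vessels and are quiescent for most of their life. When a vessel sprouts, tip cells at its front migrate along a gradient of VEGF, and stalk cells behind them divide. Cell division genes are transcribed in waves, with E2F factors driving genes of DNA synthesis and a complex of MuvB with B-MYB (MYBL2) and FOXM1 driving those of mitosis. Most genes of the first wave hold E2F sites before their start, and many of the second hold a CHR element.

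The guides are shown because their cuts define the deleted stretch. Both sites were read from GRCh37 and are printed 5′ to 3′ on the strand of the guide, with the 3-base PAM, the motif next to which Cas9 cuts, in capitals.
left guide, chr16:77602387-77602409, minus strand: aaagaagcttccggttgaatTGG
right guide, chr16:77604893-77604915, plus strand: ctattatttctcccgacgtaGGG
Each had 1 perfect site in GRCh37. Cuts at these sites remove 2517 bp (77602393 to 77604909), a stretch with a G+C content of 42.7% that overlaps 0 exons and 0 genes of the annotation. Its loss therefore cannot be read from RNA, and the labels could not be checked in this way. The study lists a slightly smaller size for this deletion and checked the deletion by PCR and Sanger sequencing.

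Sequencing was of total RNA without ribosomal RNA, and the deposited values are FPKM, the reads on a transcript scaled by its length and by the size of the library. The control libraries held 12696173 and 12067559 reads and the clones 16085525, 14814165 and 15890260. Of the 27946 genes listed, 13790 passed a filter on low values (0.5 FPKM or more in 2 or more libraries) and were tested. A gene was called when it had an adjusted p under 0.05 (limma on log2(FPKM + 0.1), Benjamini-Hochberg adjustment over all genes tested) and a change of at least 2-fold. Controls and clones lay apart on the first principal component (52.1% of the variance), and ΔSE12313-b and ΔE2 on the second (18.1%). Read counts of the control libraries differed little beyond counting noise (chi-square of 1.19 per degree of freedom), against 8.56 to 23.4 between pairs of ΔSE12313-b clones. The p values measure the spread between these libraries, which may be technical for the controls.

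In ΔSE12313-b, 2032 genes were higher than in control (14.7% of those tested) and 1080 were lower (7.83%). Counts of called genes in the lists below are to be read beside these shares. An adjusted p under 0.05, whatever the size of the change, was reached by 8188 genes. Large changes were more often rises, since 248 of the called genes rose and 105 fell by at least 3 on the log2 scale, and 42 rose and 9 fell by at least 5. The balance of directions depends on the scale. The median log2 fold change of all genes tested was 0.27, and the share of a library's reads that fell on the listed genes was 64.2% and 64.7% in the controls but 75.2% to 78.4% in the clones. With each library centred on its median log2 ratio to the mean library, 1201 genes were higher (8.71%) and 1570 lower (11.4%), so that rises made up 65.3% of the calls as deposited and 43.3% after centring. All of the 1201 were among the 2032, and all of the 1080 were among the 1570. Calls that were lost after centring are named as such in the following. Of 11664 protein-coding genes 1851 were higher (15.9%) and 756 lower (6.48%). Small nucleolar RNAs, which guide the modification of ribosomal RNA, leaned the other way, with 16 of 350 higher (4.57%) and 39 lower (11.1%). So did other genes listed as non-coding RNA, with 124 of 1366 higher (9.08%) and 247 lower (18.1%). Counts after centring are not given here for these classes.

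Genes of cell division made up the clearest group. The 10 lists for DNA replication, deoxynucleotide synthesis, histones, cyclins, mitosis, kinetochores, kinesins, DNA repair, chromosome structure and tubulins held 294 tested genes, each counted once, of which 240 rose (81.6%, against 14.7% of all genes) and 3 fell. Their median log2 fold change was 2.64, and after centring 228 were still called higher. In 287 of the 294 the clones did not overlap with the controls. The share of all genes without overlap is not given here, and 59.4% of all genes reached an adjusted p under 0.05 by limma. Between ΔSE12313-b and ΔE2 clones 2 of the 294 were called, 1 in each direction. Of all genes tested, 2.63% were called higher and 1.60% lower in this contrast, so calls were few in general. NCAPD3, a condensin subunit, was lower in ΔSE12313-b (log2 difference of -1.28), and TUBGCP2, of the gamma-tubulin ring, was higher (1.01). The value of TUBGCP2 lies close to the 2-fold threshold, and the median difference over all genes tested was 0.11. Whether its call is kept after centring is not given here. The difference between the deletions was within 1 on the log2 scale for 292 of the 294, and the same share over all genes is not given here. In its own assays the study found slower proliferation of clones of this deletion than of control cells, and a smaller share of cells in S phase. The rises in RNA are therefore not read here as faster division.

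At the start of replication, 41 of the 48 tested genes for licensing and the fork rose and 0 fell (median 2.17). ORC1, the subunit that helps mark origins, had an FPKM of 0.150 and 0.0790 in the controls and 11.2, 10.2 and 8.64 in clones 1, 2 and 3 (log2 fold change of 5.57 ± 0.20 SE, adjusted p = 6.99e-07 by limma). MCM10, which helps to activate the loaded helicase, was at 0.139 and 0.183 against 11.4, 10.7 and 8.92. Neither gene reached 0.2 in a control, and neither was under 8 in a clone. GINS2, a subunit of the active helicase, rose from 0.537 and 0.777 to 26.3, 20.1 and 19.5 (log2 fold change of 4.87). PCNA, the sliding clamp of the polymerases, was the most abundant member, at 62.7 and 63.8 in the controls against 289, 261 and 279 in the clones (log2 fold change of 2.12 ± 0.09, adjusted p = 1.32e-06 by limma). The controls thus held PCNA at a level that most other members did not reach in either group.

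Supply of deoxynucleotides moved the same way, with 9 of 12 tested genes higher and 0 lower. RRM2, the small subunit of ribonucleotide reductase that is made in S phase, was at 1.06 and 0.611 in the controls and at 77.1, 76.3 and 62.1 in the clones, the largest rise among protein-coding genes with a clone mean of at least 10 (log2 fold change of 6.30 ± 0.25 SE, adjusted p = 8.98e-07 by limma). TK1, the thymidine kinase of dividing cells, went from 0.894 and 1.04 to 91.5, 75.2 and 79.1 (log2 fold change of 6.26 ± 0.12). TYMS, which makes thymidylate, was at 13.0 and 12.3 in the controls and at 129, 113 and 124 in the clones. In each of these genes the lowest clone was several-fold above the higher control.

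Histone genes of the clusters, whose messages lack a poly(A) tail and are made in S phase, rose in 59 of 59 tested members (median 3.80), and in 58 after centring. The depletion of ribosomal RNA keeps such messages in the library. They took 0.115% and 0.114% of the reads on genes in the controls but 1.36%, 1.03% and 1.23% in the clones. HIST1H3B had 4.19 and 5.64 in the controls against 405, 357 and 405 in the clones (log2 fold change of 6.29 ± 0.19 SE, adjusted p = 3.47e-07 by limma), and the linker histone gene HIST1H1B had 3.30 and 3.48 against 163, 145 and 169.6. HIST2H4A was the most abundant, at 130.3 and 146 in the controls against 2354, 1532 and 1977 in the clones. It has a copy of the same sequence, HIST2H4B, whose values were nearly the same, and the split of reads between such copies is uncertain. Clone 2 was the lowest of the clones in each of these 3 genes.

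**Figure D1:**
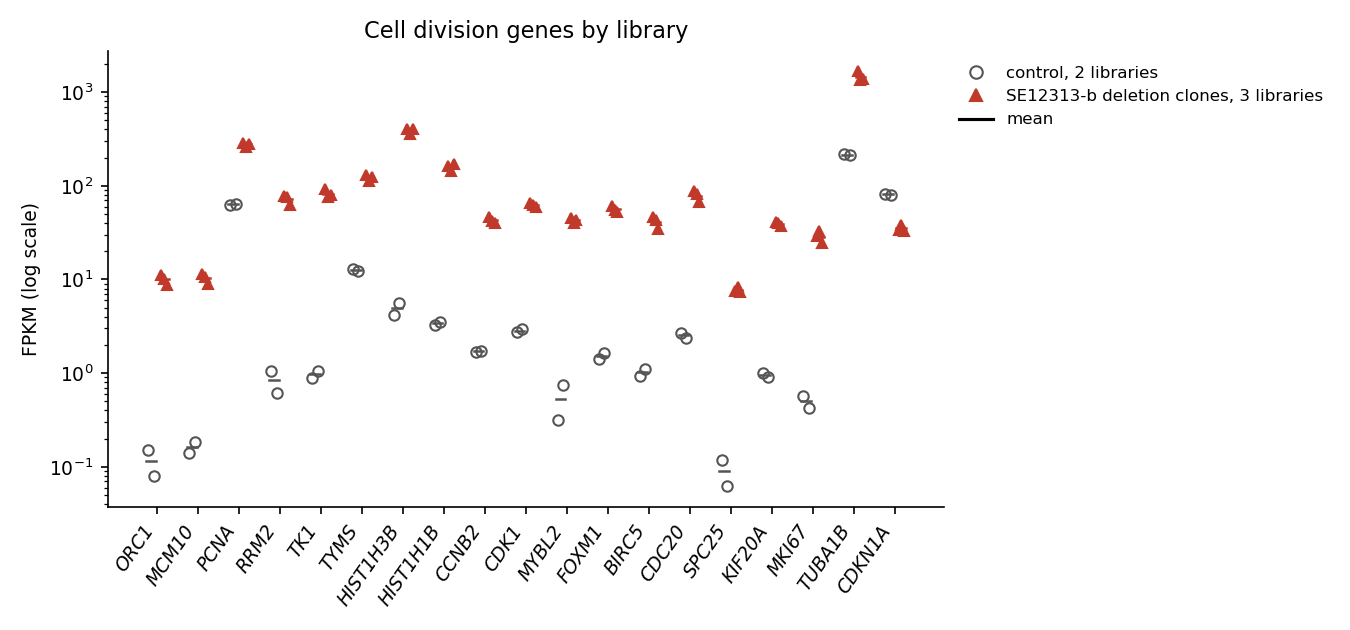
FPKM of cell division genes (log axis) in the 2 control libraries (open circles) and the 3 SE12313-b deletion clones (filled triangles), with a line at each group's mean. The clones lie above both controls for every gene shown except CDKN1A, an inhibitor of cyclin-dependent kinases, where they lie below.

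Of the cyclins, their kinases and the CDC25 phosphatases, 15 of 17 tested rose and 0 fell. CDK1, the kinase of mitotic entry, was at 2.73 and 2.96 in the controls and at 65.2, 62.7 and 59.8 in the clones (log2 fold change of 4.41 ± 0.11 SE, adjusted p = 1.77e-07 by limma), and its partner gene CCNB2 was at 1.69 and 1.72 against 46.8, 41.9 and 39.8. CCND1, the cyclin through which growth factors act in G1, was the most abundant and was not called, with 135 and 137 in the controls against 154, 149.7 and 133 in the clones (log2 fold change of 0.10). Among the inhibitors, CDKN1A (p21), which stops the cycle downstream of p53, fell from 81.5 and 79.9 to 34.1, 37.8 and 33.2 (log2 fold change of -1.204 ± 0.10, adjusted p = 3.25e-05 by limma). PKMYT1, a kinase that holds CDK1 inactive until mitosis, rose from 0.255 and 0.307 to 17.5, 15.2 and 13.6. CDKN3 and CDKN2C were also called higher, so the inhibitors did not move as 1 group. Of 22 tested targets of p53, 5 fell (22.7%, against 7.83% of all genes) and 1 rose (4.55%, against 14.7%). The gene that rose was FDXR, a call lost after centring and without control 2. GDF15, a secreted stress factor, fell from 193 and 186 to 73.7, 60.4 and 71.7.

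The factors that drive the waves of transcription were themselves among the risen genes, with 10 of 21 tested members higher and 0 lower, and 9 higher and 2 lower after centring. FOXM1 was at 1.41 and 1.62 in the controls against 60.4, 55.04 and 52.3 in the clones (log2 fold change of 5.12 ± 0.11 SE, adjusted p = 1.27e-07 by limma). MYBL2 was at 0.314 and 0.750 against 45.2, 40.4 and 42.6 (log2 fold change of 6.17 ± 0.27). E2F2 was at the floor in the controls, with 3 reads or fewer in each, and at 4.04, 3.62 and 2.80 in the clones, at least 74.6-fold higher. MKI67, the gene of the Ki-67 antigen used to stain dividing cells, had an FPKM of 0.574 and 0.429 in the controls against 28.8, 32.9 and 24.4 in the clones (log2 fold change of 5.58 ± 0.22), and PCLAF, a PCNA-binding protein, had 1.38 and 1.39 against 84.4, 75.1 and 77.6. The ΔE2 clones had a mean of 22.5 for MKI67 and 39.2 for FOXM1, on the side of the ΔSE12313-b clones.

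In mitosis, 20 of 22 tested kinases and checkpoint genes rose, as did 32 of 36 of the centromere and kinetochore, 14 of 28 kinesins, 15 of 24 genes of condensin and cohesin, and 14 of 19 tubulins. BIRC5 (survivin), which with Aurora B guides the attachment of chromosomes, was at 0.930 and 1.105 in the controls against 46.0, 43.2 and 35.0 in the clones (log2 fold change of 5.21 ± 0.15 SE, adjusted p = 2.89e-07 by limma). CDC20, which activates the anaphase-promoting complex, was at 2.70 and 2.35 against 87.6, 81.4 and 67.0. KIF20A, a kinesin of cytokinesis, was at 1.00 and 0.913 against 41.3, 39.7 and 37.1. For all 3 genes clone 3 was the lowest clone, and it was still more than 20 times the higher control. SPC25 of the kinetochore and ESCO2, which acetylates cohesin, were at 3 reads or fewer in each control and were at least 42.6-fold and 93.3-fold higher in the clones. TUBA1B, a main alpha-tubulin, rose from 216 and 212 to 1659, 1344 and 1385 (log2 fold change of 2.77). Only AURKC, KIF27 and TUBE1 fell among these lists, and the call of AURKC was lost without either control library or without clone 1 or clone 3.

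DNA repair followed, with 21 of 29 tested genes higher and 0 lower. EXO1, an exonuclease of repair and recombination, was at 0.0990 and 0.287 in the controls against 10.3, 9.03 and 8.99 in the clones, and FANCI, of the Fanconi pathway, at 4.12 and 3.98 against 29.6, 27.1 and 24.9 (log2 fold change of 2.72 ± 0.11 SE, adjusted p = 1.15e-06 by limma). UHRF1, which recruits the maintenance methyltransferase to newly copied DNA, rose from 5.12 and 4.93 to 58.7, 51.2 and 49.2 (log2 fold change of 3.37). In the same list of DNA methylation and Polycomb enzymes, in which 8 of 22 rose and 2 fell, CBX7 and EZH1 were lower (log2 fold changes of -1.501 and -1.23). CBX7 reads the Polycomb mark on histone H3, and EZH1 is the methyltransferase of Polycomb that prevails in cells that do not divide.

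Because these genes moved together, their promoters were searched for 2 motifs on both strands, TTTNNCGC as an E2F site and TTTGAA as a CHR element, which do not overlap in their letters. The windows ran from 250 bases before to 50 after the start of each gene (RefSeq, GRCh38.p14). Of all 27305 promoters, 6.90% held the E2F motif and 15.4% the CHR motif, and of the 10207 tested genes with a promoter there 10.9% and 9.88%. Of the 43 replication genes with a promoter, 22 (51.2%) held the E2F motif and 1 (2.33%) the CHR motif. Of the 15 genes of mitotic kinases and the checkpoint with a promoter, 2 (13.3%) held the E2F motif and 9 (60.0%) the CHR motif. For this list 68.2% of the genes had a promoter, which is too few for a reading over the whole list. Among the 49 histone promoters 34.7% held the first and 42.9% the second, and among the 31 of the centromere and kinetochore 22.6% and 38.7%, so that these lists held both motifs. Of the 87 promoters of called genes with a log2 fold change of at least 4, 28.7% held the first and 48.3% the second, against 13.2% and 15.6% for all 1574 promoters of genes that were called higher. A match is a stretch of letters and not a bound site.

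Shown are the 250 bases before the start, with matches in capitals, of the gene with the largest rise in the replication list and the 2 with the largest rises in the list of mitotic kinases and the checkpoint, among called genes whose stretch holds the motif given for their list. GINS2 lies on the minus strand and the others on the plus strand, and each is printed on the strand of its gene.
GINS2, chr16:85688955-85689204: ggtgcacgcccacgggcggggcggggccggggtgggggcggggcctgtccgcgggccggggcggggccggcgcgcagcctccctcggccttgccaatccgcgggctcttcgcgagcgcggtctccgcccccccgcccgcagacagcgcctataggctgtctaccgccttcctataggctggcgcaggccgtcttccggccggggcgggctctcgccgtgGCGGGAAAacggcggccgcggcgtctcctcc
CDC20, chr1:43358731-43358980: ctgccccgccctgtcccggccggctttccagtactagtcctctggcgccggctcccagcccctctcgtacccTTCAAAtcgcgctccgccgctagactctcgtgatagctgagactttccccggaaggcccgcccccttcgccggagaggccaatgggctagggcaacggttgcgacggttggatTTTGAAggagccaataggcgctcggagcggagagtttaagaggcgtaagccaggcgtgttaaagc
CDCA8, chr1:37692266-37692515: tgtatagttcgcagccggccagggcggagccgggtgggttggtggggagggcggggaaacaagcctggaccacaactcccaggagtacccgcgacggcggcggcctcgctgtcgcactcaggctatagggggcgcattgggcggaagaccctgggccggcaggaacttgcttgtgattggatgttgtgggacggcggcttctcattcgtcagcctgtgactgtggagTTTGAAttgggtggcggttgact
The match in GINS2 begins 31 bases before the start and that in CDCA8, a partner of Aurora B, 23 bases before it. CDC20 holds 2 matches, 178 and 65 bases before the start. The same 3 genes had log2 fold changes of 4.87, 4.57 and 4.90 in the order GINS2, CDCA8 and CDC20.

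Among the lists with at least 10 tested genes, the integrated stress response had the largest share of genes that fell. This is the program by which cells that lack amino acids, or whose protein folding is strained, slow translation and make the factor ATF4, which then switches on genes of amino acid supply. Of 35 tested genes, 21 fell (60.0%, against 7.83% of all genes) and 1 rose (ATF5, a call lost after centring), with a median log2 fold change of -1.15, and after centring 24 fell and 0 rose. ATF4 itself was at 243 and 247 in the controls against 92.2, 79.5 and 78.2 in the clones (log2 fold change of -1.56 ± 0.10 SE, adjusted p = 1.03e-05 by limma). CHAC1, which breaks down glutathione, was at 6.05 and 5.93 against 0.613, 0.843 and 0.455. ASNS, asparagine synthetase, was at 73.8 and 71.5 against 14.8, 12.3 and 8.11. TRIB3, a pseudokinase that dampens ATF4, was at 187 and 179.8 against 42.5, 33.4 and 40.2 (log2 fold change of -2.25 ± 0.11). The clones did not overlap with the controls in any of these. SLC38A2, an amino acid carrier and the most abundant member, was not called, with 154 and 161 in the controls against 148, 152 and 152 in the clones. ALDH1L2, a mitochondrial folate enzyme, was at 3.13 and 3.33 against 0.314, 0.404 and 0.310 and was also lower than in ΔE2 (log2 difference of -1.27 ± 0.17, adjusted p = 0.00225 by limma).

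Lists related to this program are given beside the shares of all genes, 14.7% higher and 7.83% lower. Of 20 cytosolic aminoacyl-tRNA synthetases, which charge tRNA with amino acids, AARS and MARS fell (10.0%, log2 fold changes of -1.37 and -1.12) and FARSA rose (5.0%), a call lost after centring. Of 22 tested chaperones and sensors of the endoplasmic reticulum, 4 rose (18.2%) and 2 fell (9.09%), and 2 rose and 3 fell after centring. ERN1 and its target XBP1, a sensor of unfolded proteins and its transcription factor, were the ones that fell (log2 fold changes of -1.63 and -1.03), the call of XBP1 being lost without control 2. CALR, a folding helper, rose from 178 and 178 to 553, 482 and 617 (log2 fold change of 1.62 ± 0.10 SE, adjusted p = 1.03e-05 by limma).

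TXNIP was the protein-coding gene with the largest fall among those with a control mean of at least 10. It encodes an arrestin that binds thioredoxin and limits glucose uptake, and it is known to respond to glucose. TXNIP was at 317 and 319 in the controls and at 1.28, 1.74 and 6.21 in clones 1, 2 and 3 (log2 fold change of -6.98 ± 0.60 SE, adjusted p = 4.27e-05 by limma). Clone 3 was more than 3-fold above the other clones and still more than 50-fold below the controls. ARRB2, a beta-arrestin, rose (log2 fold change of 1.53), and MXD1, a repressor that acts opposite to MYC, fell (-1.201). In glycolysis, 10 of 23 tested genes rose (43.5%, against 14.7% of all genes) and 0 fell, but 5 rose and 1 fell after centring. LDHA, lactate dehydrogenase, was at 103 and 108 in the controls against 400.1, 398 and 362 in the clones (log2 fold change of 1.87 ± 0.11, adjusted p = 7.42e-06 by limma), and PGAM1, phosphoglycerate mutase, at 66.7 and 67.9 against 279.5, 243 and 221.

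Of the angiogenic genes, VEGFA, the main growth factor of vessels, fell. It was at 24.97 and 24.4 in the controls and at 2.76, 4.12 and 3.07 in the clones (log2 fold change of -2.88 ± 0.16 SE, adjusted p = 5.4e-06 by limma). Of the 19 tested VEGF ligands, receptors, angiopoietins and their co-receptors and semaphorins, 4 fell (21.1%, against 7.83% of all genes) and 1 rose. The semaphorins SEMA3A and SEMA3F, guidance cues that act against VEGF at neuropilins, were among those that fell (log2 fold changes of -1.29 and -1.37). ANGPT1, the agonist of the receptor TEK, was the one that rose, from 1.82 and 1.80 to 4.22, 5.11 and 4.52. TIE1, a partner of TEK and the most abundant member, was at 55.3 and 56.8 in the controls against 50.4, 47.2 and 53.5 in the clones and was not called.

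Of 22 tested hypoxia genes 3 rose (13.6%, against 14.7% of all genes) and 3 fell (13.6%, against 7.83%). STC1, stanniocalcin, was at 295 and 301 in the controls and at 8.34, 9.84 and 22.6 in the clones (log2 fold change of -4.59 ± 0.39 SE, adjusted p = 4.22e-05 by limma). DDIT4, an inhibitor of mTORC1, was at 30.6 and 30.1 against 6.02, 4.22 and 6.17. ADM, adrenomedullin, went the other way, from 2.54 and 2.41 to 9.30, 8.01 and 8.70 (log2 fold change of 1.77). Of the 12 tested genes of tip cells, ADM and LXN rose (16.7%, against 14.7% of all genes) and PXDN and ESM1 fell (16.7%, against 7.83%). ESM1 (endocan), which tip cells secrete, was at 58.2 and 62.2 against 23.3, 25.6 and 12.7 (log2 fold change of -1.61 ± 0.41). The call of ESM1 was lost without either control, 4 of the tip cell genes fell without clone 2, and that of LXN was lost after centring.

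**Figure D2:**
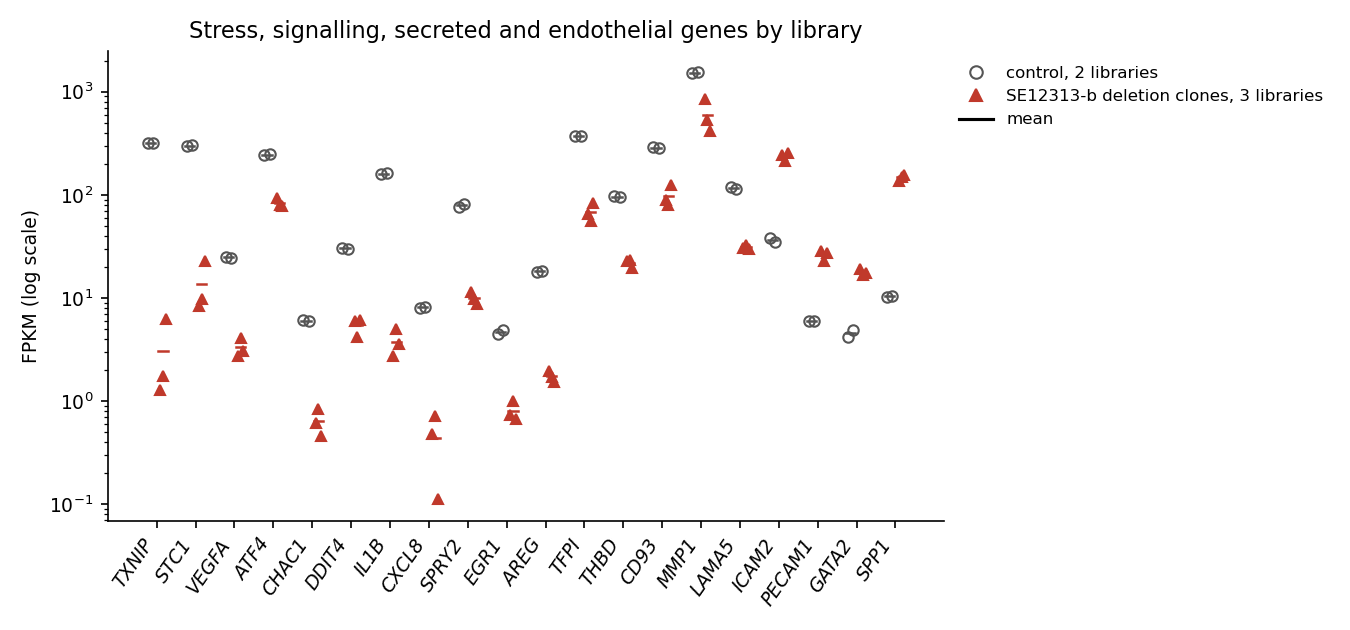
FPKM of stress, signalling, secreted and endothelial genes (log axis) in the 2 control libraries (open circles) and the 3 SE12313-b deletion clones (filled triangles), with a line at each group's mean. The groups do not overlap for any gene shown, the clones being lower for the first 16 and higher for ICAM2, PECAM1, GATA2 and SPP1.

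The labelled cell line was checked against endothelial markers. CDH5, the cadherin of endothelial junctions, was at 102 and 103 in the controls against 74.8, 64.3 and 92.8 in the clones, and ENG, a co-receptor for TGF-beta and BMP9, at 163 and 162 against 215, 184 and 274. Both are defining markers, and neither was called. KDR, the main VEGF receptor, did not reach 0.3 in any of the 5 libraries and was not tested, and CLDN5, a tight junction gene of endothelium, was listed at 0 in all. The summed FPKM of the 26 listed identity markers was 906 and 902 in the controls but 1325, 1158 and 1617 in the clones. Of the 23 tested, 5 rose (21.7%, against 14.7% of all genes) and 3 fell (13.0%, against 7.83%). ICAM2, an adhesion molecule of resting endothelium, was at 37.8 and 34.5 against 243, 210.5 and 256 (log2 fold change of 2.70 ± 0.10 SE, adjusted p = 7.62e-07 by limma), and PECAM1 (CD31) at 5.93 and 6.03 against 28.2, 22.8 and 27.1 (2.10). THBD, thrombomodulin, which turns thrombin against clotting, fell from 96.7 and 95.4 to 23.01, 23.4 and 19.6 (-2.13 ± 0.11). VWF, the carrier of clotting factor VIII, fell from 2.02 and 1.83 to 0.368, 0.346 and 0.831. Without control 1, control 2 or clone 3, 3 of the 23 were called higher in place of 5, and 2 after centring.

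Markers of other cell types were looked at beside these. Of 14 epithelial markers 5 were tested and 3 rose, the keratins KRT8, KRT7 and KRT18, with KRT8 at 86.0 and 87.3 in the controls against 295, 242 and 282 in the clones (log2 fold change of 1.65), and with KRT18 losing its call after centring. The defining epithelial gene CDH1 was listed at 0 in all libraries and EPCAM did not exceed 0.6 in any of them. Summed over the list, epithelial markers were at 389 and 388 in the controls and at 1105, 849 and 913 in the clones. Of 8 tested mesenchymal markers 0 rose and 2 fell by limma, COL1A2 being listed at 0 in the 5 libraries. Their summed FPKM was nonetheless higher in the clones, at 1061 and 1084 in the controls against 1847, 1699 and 1890, most of it from VIM, vimentin, which was not called (1013 and 1038 against 1795, 1646 and 1845). Of 6 tested blood cell markers 2 rose, CORO1A and LCP1 (log2 fold changes of 3.86 and 1.06), and 2 fell, LCP2 and CD74 (-2.72 and -2.60), with sums of 37.5 and 35.3 in the controls but 47.5, 50.8 and 48.1 in the clones. The number that rose was 1 after centring and without control 1, control 2, clone 1 or clone 2. The defining blood cell genes PTPRC and CD3E were listed at 0 in the 5 libraries. Their part in the results was not tested.

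Among endothelial transcription factors, 6 of 23 tested rose (26.1%, against 14.7% of all genes) and 2 fell (8.70%, against 7.83%), but 3 rose and 4 fell after centring. GATA2, which sets endothelial and blood programs, was at 4.198 and 4.85 in the controls against 19.0, 16.6 and 17.4 in the clones (log2 fold change of 1.94 ± 0.10 SE, adjusted p = 3.99e-06 by limma). LYL1 and HHEX, factors of early blood and endothelial fate, rose by 1.55 and 1.58 on the log2 scale. NR2F2, which sets venous identity and was the most abundant, was called higher (1.17), but not after centring. NR4A1, a nuclear receptor that VEGF induces, fell from 2.66 and 2.83 to 0.863, 0.830 and 0.674 (-1.68 ± 0.21). GATA6 fell too (-1.08), a call that was lost without control 1, control 2 or clone 3. In the Notch pathway 1 of 15 rose (6.67%, against 14.7% of all genes) and 1 fell (6.67%, against 7.83%). The gene that fell was NOTCH4, a receptor of endothelial cells, at 6.77 and 6.49 against 1.76, 1.72 and 1.97, and HES1 was the one that rose, a call lost after centring and without either control. Without control 2 the number of Notch genes called lower was 2.

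Genes that report growth factor signalling fell in part. Of 26 tested immediate early genes and feedback inhibitors of ERK, 7 fell (26.9%, against 7.83%) and 0 rose. After centring 12 of them fell, and with quantile normalization 13 did. SPRY2, an inhibitor of receptor signalling that ERK induces, was at 76.9 and 81.2 in the controls against 11.4, 9.66 and 8.76 in the clones (log2 fold change of -2.99 ± 0.15 SE, adjusted p = 3.19e-06 by limma). EGR1, an early transcription factor, was at 4.48 and 4.92 against 0.734, 0.991 and 0.663, and DUSP1, a phosphatase of MAP kinases, at 45.5 and 43.7 against 15.7, 11.4 and 9.32. EGR1 was also lower than in ΔE2 (log2 difference of -1.86 ± 0.32, adjusted p = 0.00521 by limma). FOSL1, the most abundant member, was at 93.4 and 98.9 against 77.3, 76.8 and 68.1 and was not called. ERRFI1, an inhibitor of the EGF receptor, fell from 164 and 171 to 23.2, 20.9 and 11.9, and AREG, a ligand of that receptor, from 18.0 and 18.2 to 1.96, 1.70 and 1.54 (log2 fold changes of -3.21 and -3.32). AREG is listed as a target of YAP, and of 22 tested targets of YAP and TEAD 4 rose (18.2%, against 14.7% of all genes) and AREG alone fell (4.55%, against 7.83%). After centring 3 of them rose, and with quantile normalization 1 did. ANKRD1 was at 22.03 and 22.4 in the controls and at 267, 244 and 106 in the clones, with clone 3 under the other clones but over the controls (log2 fold change of 3.10 ± 0.44).

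In inflammation, 10 of 22 tested chemokines, interleukins and adhesion molecules fell (45.5%, against 7.83% of all genes) and 4 rose (18.2%, against 14.7%). IL1B was at 158 and 163 in the controls and at 2.76, 4.99 and 3.59 in the clones (log2 fold change of -5.41 ± 0.23 SE, adjusted p = 1.28e-06 by limma). CXCL8, which draws neutrophils, was at 7.97 and 8.24 against 0.476, 0.715 and 0.111, and IL11 at 2.76 and 2.52 against 0.420, 0.370 and 0.239. CXCL8 was also lower than in ΔE2 (log2 difference of -2.67). CCL2, which draws monocytes, rose from 4.99 and 4.80 to 12.7, 22.11 and 16.3 (log2 fold change of 1.74), and CSF2 rose from 2.02 and 1.49 to 4.87, 4.85 and 10.5, a call lost without either control. CCL2 was lower than in ΔE2, where it was at 30.3, 56.4 and 46.3. The group thus held changes in both directions, and without control 2 the number of its genes called higher was 2.

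Interferon-stimulated genes did not move as 1 group, with 7 of 38 higher (18.4%, against 14.7% of all genes) and 3 lower (7.89%, against 7.83%). OAS3 and OAS1, sensors of double-stranded RNA, rose by 2.09 and 1.63 on the log2 scale. IRF9, the DNA-binding part of the interferon complex, fell from 21.5 and 21.7 to 5.71, 6.48 and 9.74. BST2, which tethers viruses to the cell, fell by 2.71 on the log2 scale. Of 16 genes of MHC class I and antigen processing 5 fell (31.25%, against 7.83% of all genes) and 1 rose (6.25%, against 14.7%). HLA-B was at 78.8 and 80.7 in the controls and at 14.5, 14.8 and 37.4 in the clones, and HLA-C at 82.2 and 77.1 against 27.3, 25.2 and 49.2. In both, clone 3 lay between the other clones and the controls. Without control 1, control 2, clone 1 or clone 2 the list had 3 lower genes in place of 5.

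Secreted and matrix genes held some of the largest changes in FPKM itself. MMP1, interstitial collagenase, was at 1517 and 1548 in the controls against 841, 533 and 414 in the clones (log2 fold change of -1.42 ± 0.38 SE, adjusted p = 0.0123 by limma). TFPI, the inhibitor of the tissue factor pathway, was at 374 and 371 against 64.4, 55.5 and 83.5 (-2.48 ± 0.27). Both fell, as did CD93, a receptor of sprouting endothelium, from 288 and 281 to 89.0, 79.4 and 125. MMP10 (stromelysin 2) was at 18.7 and 18.3 against 0.285, 0.309 and 1.55, with clone 3 several-fold above the other clones. The call of MMP1 was lost without either control. Of the 19 tested metalloproteinases and inhibitors 4 fell (21.1%, against 7.83% of all genes) and 2 rose (10.5%, against 14.7%). Without either control 2 of them fell, and the number that rose was 1 without clone 1 and 4 without clone 2.

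In the basement membrane, LAMA5, a laminin chain of mature vessels, fell from 118 and 113 to 30.5, 32.6 and 29.7 (log2 fold change of -1.90 ± 0.08 SE, adjusted p = 1.15e-06 by limma). TNC, tenascin C, fell from 8.32 and 8.84 to 0.0940, 0.315 and 0.0290. SPP1, osteopontin, rose from 10.2 and 10.5 to 136, 149 and 157 (3.81 ± 0.22) and was also higher than in ΔE2 (log2 difference of 2.36, adjusted p = 0.000447 by limma). Of 28 tested genes of this list 5 fell (17.9%, against 7.83% of all genes) and 3 rose (10.7%, against 14.7%). Of 16 integrin subunits 3 fell (ITGA11, ITGA10 and ITGA2) and 0 rose, and without control 2 the count was 1 lower and 1 higher. The integrins that fell made up 18.75% of those tested, against 7.83% of all genes. ITGA10 was at 25.1 and 24.8 in the controls against 2.48, 3.17 and 8.86 in the clones, and its call was lost without either control.

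Lists of general cell functions were looked at as well, beside the shares of all genes, 14.7% higher and 7.83% lower. Of 79 cytosolic ribosomal proteins 0 rose and 0 fell by limma at the call rule (median -0.12), since their log2 fold changes ran from -0.98 to 0.84, and 2 fell after centring and 3 without clone 3. Of 61 respiratory chain subunits 7 rose (11.5%), 1 after centring, and of 31 proteasome subunits 9 rose (29.0%), 4 after centring. Of 18 heat shock chaperones 7 rose (38.9%) and 3 did after centring. Among them was HSP90AA1, at 239 and 249.5 in the controls against 832, 886 and 865 in the clones (log2 fold change of 1.82 ± 0.11 SE, adjusted p = 8.05e-06 by limma). Of 30 genes of MYC and ribosome biogenesis 6 rose (20%) and 0 fell, and 3 rose after centring. EBP, an enzyme of late cholesterol synthesis, rose by 2.52 on the log2 scale, in a list with 8 of 31 higher and 1 lower. Of 24 targets of NRF2 8 rose (33.3%) and 2 fell (8.33%). HMOX1, heme oxygenase, was at 8.16 and 8.01 in the controls against 20.9, 23.7 and 26.4 in the clones (log2 fold change of 1.53 ± 0.14). ANXA2 and S100A10, which together bind plasminogen on the cell surface, rose by 1.37 and 1.498 on the log2 scale. Of 16 members of the BCL2 family 4 fell and 2 rose, with MCL1, a survival protein, at 98.3 and 101 against 47.0, 49.1 and 44.7, and without control 2 the counts were 2 and 1.

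Of 14 tested genes of NADPH oxidase and antioxidant enzymes, 3 fell (21.4%, against 7.83% of all genes) and 4 rose (28.6%, against 14.7%). Those that fell were all of the oxidase, and those that rose were all antioxidant enzymes. CYBA (p22phox), the shared membrane subunit, was at 11.7 and 9.27 in the controls and at 0, 0.0940 and 0.0880 in the clones, with no more than 1 read in a clone against 106 and 80 in the controls, at least 38.9-fold lower. NOX4, an oxidase of endothelium, was at 2.92 and 2.71 against 0.876, 0.612 and 1.11. Both were also lower in ΔSE12313-b than in ΔE2, by log2 differences of -5.85 for CYBA and -1.08 for NOX4, each called by limma. The direct call of NOX4 was lost without clone 2. On the other side, CAT, catalase, rose from 4.17 and 4.24 to 14.2, 13.9 and 13.4 and PRDX1, a peroxiredoxin, from 144 and 149 to 472, 453 and 414 (log2 fold changes of 1.69 and 1.60).

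Genes around the deletion were given by a fixed distance of 1 Mb. ADAMTS18, a secreted metalloproteinase whose start lies 133 kb from the deleted stretch, was at 0.682 and 0.859 in the controls and at 0.232, 0.149 and 0.128 in the clones (log2 fold change of -1.70 ± 0.41 SE, adjusted p = 0.00777 by limma). These values stand for 51 and 61 control reads and for 22, 13 and 12 reads in clones 1, 2 and 3. It was at 0.133, 0.149 and 0.0870 in the ΔE2 clones, and the direct log2 difference between the deletions was 0.27 ± 0.37 (adjusted p = 0.631 by limma). With a pseudocount of 1 in place of 0.1 its log2 fold change was -0.60 and it was not called. It was called at -2.15 with a pseudocount of 0.01, at -1.99 after centring and at -1.38 with quantile normalization. Of the 5 other tested genes within this distance 0 were called by limma, though SYCE1L, VAT1L and WWOX had an unadjusted p under 0.05. All of them and ADAMTS18 lie on 16q, where the median log2 fold change was -0.31 relative to that of all genes. Whether a fall here is local to the deletion or part of that shift of the arm was not tested. MON1B, NUDT7 and SYCE1L had log2 fold changes of -0.16, 0.10 and -0.56. VAT1L was at 27.5 and 26.4 against 13.7, 13.7 and 20.5 and WWOX at 1.67 and 2.34 against 0.941, 1.09 and 1.52, and both were called lower only after centring. VAT1L was higher in ΔSE12313-b than in ΔE2 (log2 difference of 1.74 ± 0.30, adjusted p = 0.00532 by limma). CLEC3A, LINC02125 and MIR4719 had 1 read or none in each of the 5 libraries. The study tested read counts in place of FPKM and reported SYCE1L and WWOX as downregulated in this deletion, unlike the calls here. It also reported CNTNAP4, whose start is not within the distance used here.

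Some genes were all but absent from 1 group. With a floor of 3 reads per library, 26 genes were at or under it in all 3 clones while both controls held at least 20 reads, and 8 of them had no read in any clone. The bounds on their falls ran from 8.61-fold to 182-fold. EPB41L3, a membrane skeleton protein, had 444 and 424 control reads (8.99 and 9.04 FPKM) but 0 in each clone, at least 182-fold lower, and was at 16.97, 16.1 and 20.7 FPKM in the ΔE2 clones. PXDN, a peroxidase that cross-links collagen IV, had 259 and 240 control reads but 0 in each clone. PLCB2, a phospholipase, had 47 and 40 control reads, 0 in each clone and 4.71, 6.17 and 4.95 FPKM in the ΔE2 clones. Of the 26 genes, 7 were at 0.5 FPKM or more in all ΔE2 clones and 18 were under it in all of them. In the other direction 18 genes were at or under the floor in both controls while each clone held at least 20 reads, and 9 of these were at 0.5 FPKM or more in all ΔE2 clones. RIBC2 and TRPM2, the first a protein of cilia and the second a calcium channel, had too few reads in the clones to be among the 18. They were listed at 0 in both controls and at 1.204, 1.16 and 0.858 and 0.584, 0.634 and 0.207 in the clones.

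Set against the ΔE2 clones directly, with no control library in the difference, 362 genes were higher in ΔSE12313-b (2.63% of those tested) and 221 were lower (1.60%). Those that were higher included GPNMB, a glycoprotein of melanosomes and macrophages, at 24.8, 25.7 and 33.7 in ΔSE12313-b and 2.75, 5.27 and 2.92 in ΔE2 (log2 difference of 2.96 ± 0.24 SE, adjusted p = 0.000421 by limma). NOV (CCN3), a matrix protein, was at 16.1, 19.3 and 19.5 and 2.89, 3.42 and 3.91. ACP5, an acid phosphatase, was at 19.3, 20.7 and 67.1 and 1.28, 3.45 and 0.699, with clone 3 more than 3-fold above the other clones. THY1 and MT1E were listed at 0 in every ΔSE12313-b clone and were at 4.96, 5.84 and 5.39 and 7.73, 6.18 and 11.3 in the ΔE2 clones. MT1E was near 0 in the controls too, at 0.157 and 0.496, which stand for 1 and 3 reads. THY1, in contrast, is among the genes that the study lists as most strongly downregulated in this deletion. FERMT3, an activator of integrins, was at 1.355, 1.74 and 1.25 in ΔSE12313-b, 14.6, 19.8 and 22.9 in ΔE2 and 15.4 and 14.7 in the controls. For EPB41L3 every ΔE2 clone was thus above the controls and every ΔSE12313-b clone below them, while for FERMT3 the ΔE2 clones overlapped with the controls.

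The changes were not spread evenly over the chromosomes. Over 10766 protein-coding genes whose mean FPKM was 1 or more, the median log2 fold change of each chromosome arm was taken relative to that of all. Of all these genes 15.9% were called higher and 4.70% lower. On 10p 30 of 90 genes were higher and 0 lower, with a median of 0.45, and on 10q 107 of 320 were higher and 7 lower, with a median of 0.44. On 6q the median was -0.53, with 82.8% of its 233 genes below that of all, and on 16q, the arm that carries SE12313-b, it was -0.31. The 3 clones gave 0.49, 0.47 and 0.47 on 10p and -0.50, -0.56 and -0.60 on 6q. Between the control libraries the same measure did not exceed 0.0322 on any of the 40 arms. Against the ΔE2 clones the median of ΔSE12313-b was 0.48 on 10p, 0.36 on 10q, 0.45 on 16p, -0.57 on 6q, -0.46 on 4q, -0.39 on 11q and -0.29 on 16q, again relative to all genes. These arms thus differed between the deletions, though on 16p the median of ΔSE12313-b against control was only 0.05. Genes of an arm are not independent replicates, and no test was made.

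**Figure D3:**
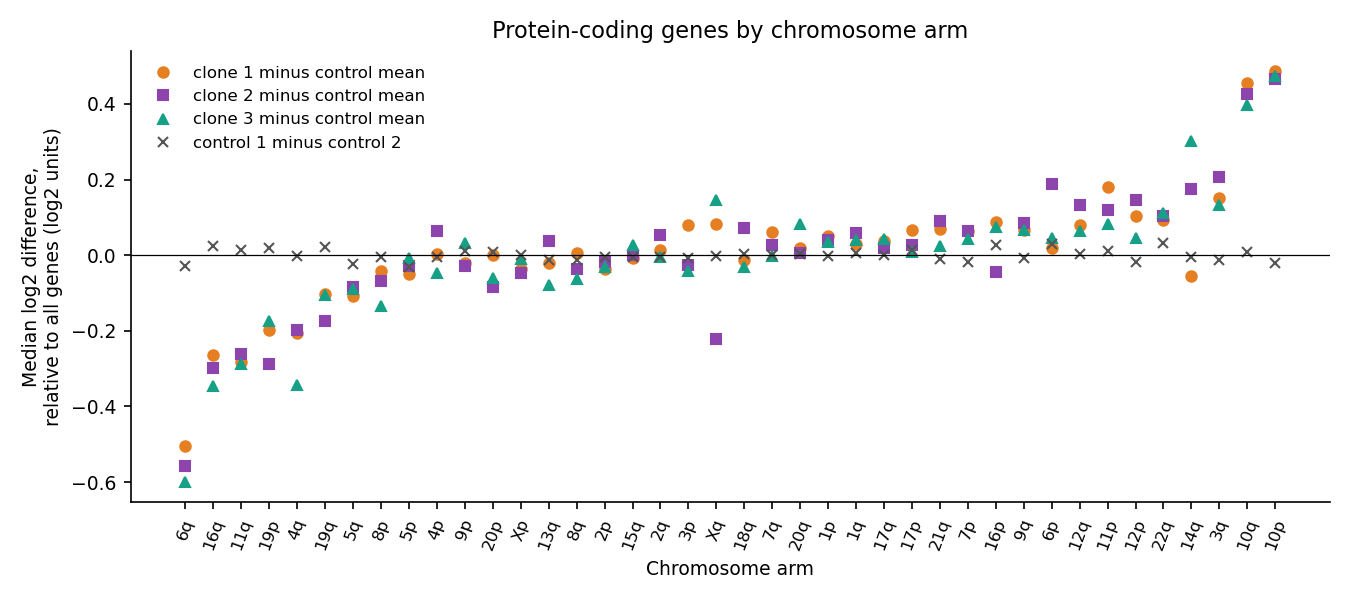
Median log2 difference from the control mean of the protein-coding genes of each chromosome arm, relative to all genes, for each SE12313-b deletion clone (filled symbols), with control 1 minus control 2 as crosses. The 3 clones lie close together at about 0.45 on 10p and 10q and between -0.50 and -0.60 on 6q, they part from each other on 14q and Xq, and the crosses stay near 0.

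The clones were close to each other in most genes. Over 5544 protein-coding genes with a clone mean of at least 10 FPKM, the median range between the highest and the lowest clone was 0.22 on the log2 scale, 78 genes had a range over 1 and 5 had one over 2. IFI27, an interferon-induced gene, was at 0.968, 14.6 and 18.7 in clones 1, 2 and 3 and at 20.2 and 16.5 in the controls. SERPINB2, an inhibitor of urokinase, was at 73.5, 91.2 and 18.6 and 105 and 108, and DKK1, a secreted inhibitor of Wnt, at 91.3, 88.5 and 24.9 and 17.6 and 16.6. Clone 1 stood apart in the first and clone 3 in the others. The call of DKK1 was lost after centring and without control 1, control 2, clone 1 or clone 2. RPL36A, a ribosomal protein, and HNRNPH2, an RNA-binding protein, were lowest in clone 2, with RPL36A at 329, 103 and 504 and HNRNPH2 at 52.7, 18.1 and 69.7 in clones 1, 2 and 3. Neither was called, and both lie in band Xq22.1.

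In clone 2 the genes of a long stretch of Xq were lower together. Bands were grouped after these values had been seen, and the medians are a description. From Xq11 to Xq21 clone 2 was the lowest clone in 50 of 52 genes, and the median of its difference from the control mean, relative to all genes, was -0.87, against -0.02 and -0.00198 in clones 1 and 3. In Xq22.1 it was the lowest in 21 of 23 genes, with a median of -1.05 against 0.17 and 0.37. From Xq22.2 to Xq23 it was the lowest in 19 of 25 genes, with a median of -0.30 against 0.06 and 0.20. In Xq24 to Xq25 it was the lowest in 24 of 24 genes, with a median of -0.53 against 0.02 and 0.07. From Xq26 to the end of the arm it was the lowest in 47 of 104 genes, and the medians were 0.15, 0.13 and 0.15 in clones 1, 2 and 3. The step lies within a chromosome arm and within 1 of 3 clones of the same deletion. GLA, a lysosomal enzyme of Xq22.1, was at 33.3, 11.5 and 32.2 in the clones and 10.1 and 10.1 in the controls, so its call as higher rests on clones 1 and 3. That call was lost after centring and without control 1, control 2, clone 1 or clone 3.

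**Figure D4:**
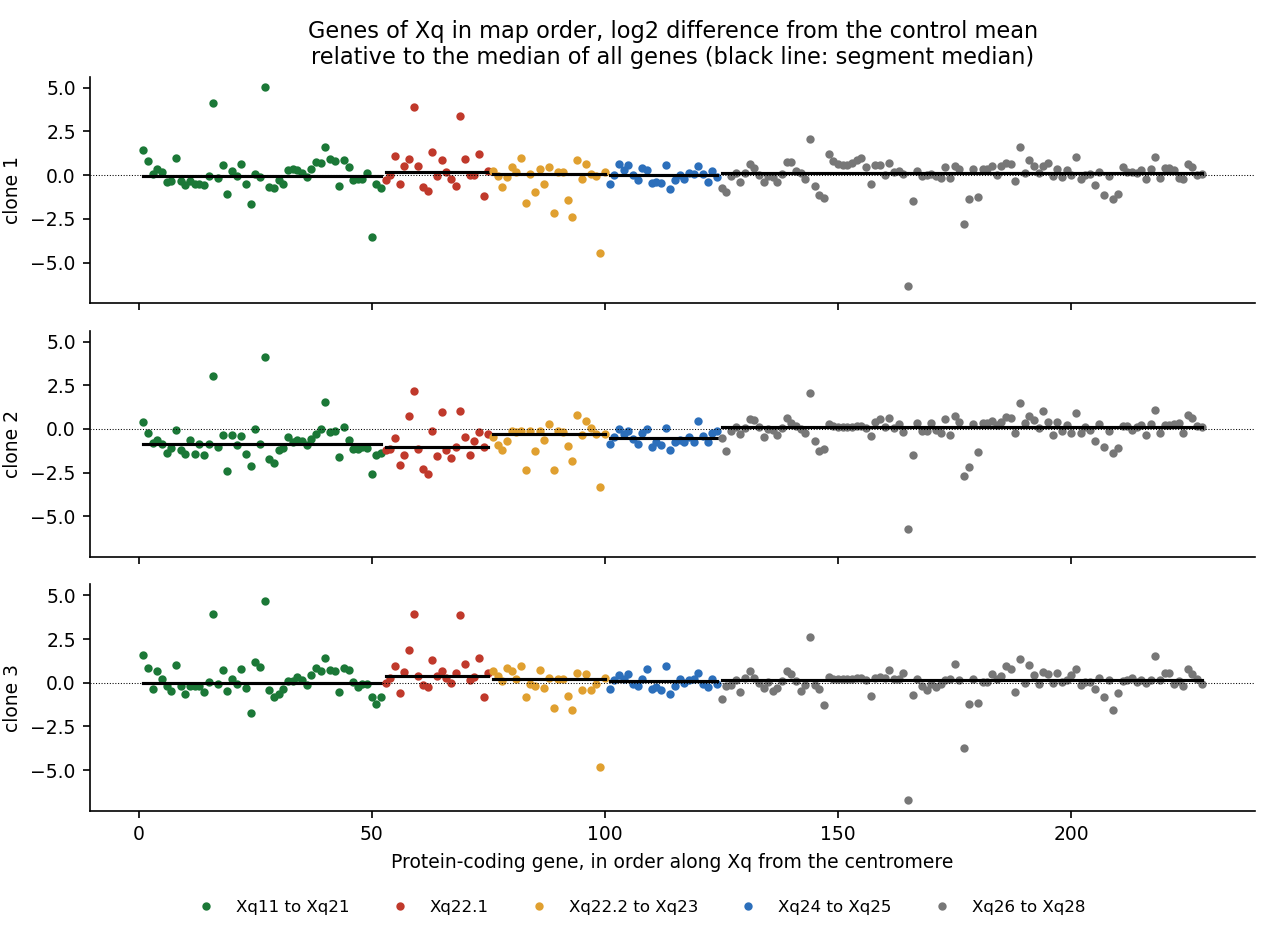
Log2 difference from the control mean, relative to the median of all genes, of 228 protein-coding genes of Xq in map order, in each SE12313-b deletion clone (1 panel each, colours give the band group, black lines its median). In clone 2 the lines of the first 4 band groups lie below 0, at -0.30 to -1.05, and the last returns to 0.13, while in clones 1 and 3 all lie between -0.02 and 0.37.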

How the data were processed

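Per the submitters' notes and methods, Trim Galore 0.4.4 and STAR 2.5.4b on GRCh37 preceded the table, in which the authors deposited an FPKM value per RefSeq transcript and library. The tool behind the FPKM values, the RefSeq release and the handling of strand are not given in the sources used here, so reads of overlapping and antisense genes may not be told apart. For each symbol the transcript with the highest mean was kept. Whole reads were recovered from the FPKM steps for read counts and bounds (100% of the values checked lay within 0.1 read of a whole number), and depth covers counting error only.

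FPKM values were tested with limma 3.58.1 in R 4.3.3, with a variance trend, on log2(FPKM + 0.1) over all 8 libraries in 3 groups. Fold changes are on that scale and understate changes of low genes. The scripts were tested on simulated data. The clones to describe and the gene lists were chosen with earlier results of these data known. Within each list the text names from the 3 called genes with the largest rise, the 3 with the largest fall and the most abundant one, besides the 15 largest called changes each way among protein-coding genes with a mean of at least 10, the 10 largest in FPKM itself, genes within 1 Mb of the deletion, genes the study names, the 5 largest differences each way between the deletions, and the 10 genes that vary most between clones. ASNS, TRIB3, NCAPD3 and TUBGCP2 were named after their values were seen, and CDCA8 for its promoter. Alternatives changed the pseudocount, filter, scaling, fold threshold, model and libraries used. Some genes that the rule names are not reported here.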

Additional observations from a re-analysis of the deposited data

How the results depend on the processing

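Counts of called genes depended on scale and threshold more than on any single library. With each library centred, 1201 genes were higher, and 1237 were with voom on the recovered reads. At a 1.5-fold threshold 4124 were higher and 1678 lower. With a pseudocount of 1, 593 were lower, and with a mean FPKM of at least 1, 673 were. Against ΔE2, the pseudocount of 1 left 140 higher and 100 lower, and the log2 fold change of ADAMTS18 against control was -0.60, under the 2-fold threshold. With voom on the recovered reads ADAMTS18 was at -2.44 against control. Leaving out 1 library at a time gave 1916 to 2083 higher and 842 to 1103 lower genes, 320 to 366 and 198 to 243 against ΔE2, and -1.86 to -1.55 for ADAMTS18.

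With the replicate number as a block, 1962 genes were higher and 1000 lower, 326 and 197 against ΔE2, and ADAMTS18 was at -1.59. Same-numbered clones and controls had correlations of deviations of -0.03 and -0.02, and those of the deletions of 0.11, -0.08 and -0.07. In groups of 2 or 3 libraries the deviations from the mean depend on each other. These values therefore cannot show whether same-numbered samples share a preparation.

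Of the 149 calls of named genes, 120 were kept under every alternative and 0 changed sign. Among genes that were not called, CCND1 turned to -0.19 when centred, -0.47 with quantile normalization and -0.17 with voom. NUDT7 turned to -0.18, -0.15 and -0.16 under the same settings, and ranged from -0.056 to 0.26 with a library left out. ENG turned to -0.10 with quantile normalization, and HNRNPH2 ranged from -0.45 to 0.52. The cause was not tested. A leave-one-out fit with 1 control assumes that it varies like the other groups. For genes with few reads, depth limits the size of a change that could be seen, and a p that misses the threshold does not show that values did not differ.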
